A study of Mus musculus with 17 samples.

Results

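Interferon response and antigen presentation genes were followed across skeletal progenitors sorted from fracture callus and from uninjured bone of female C57BL/6 mice. The list held 37 gene symbols, chosen by name but with earlier results of these data known. A gene was measured where the array's annotation ties a probe set to that symbol alone. Of the 37, 35 were measured, on 61 probe sets, among 18193 genes in all, and 34 were bright enough to be tested. The list held 3 sensors of foreign RNA, 5 transcription factors, 19 interferon-induced effectors, 5 genes of MHC class I and its peptide supply, and 5 genes of MHC class II. Mx2 lay at the lowest value kept (log2 5.95) on 7 arrays and was not tested. Ifi44 had no named probe set, and Isg15 shares its probe set with another gene and was not used.

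RNA from each sorted population was hybridized to 1 Affymetrix whole-genome mouse array, 17 arrays in all. The populations were mSSC, mouse skeletal stem cells, and mBCSP, their bone, cartilage and stromal progenitor progeny. Mice had ovaries removed (OVX) or a sham operation at 8 weeks of age, some OVX mice carried a pellet of 17β-estradiol (E2) from that time, and femora were broken 6 weeks later, with callus sorted on day 7. Callus arrays were 4 sham, 2 OVX, 2 OVX + E2, 2 whose titles say OVX while the treatment label says sham with fracture (conflicting surgery), and 2 with no surgery stated. Uninjured arrays were 3 sham and 2 OVX. Each group held mSSC and mBCSP arrays, and 8 pairs shared group and title form. Titles carry short codes in 3 forms: surgery and population (SB, SS, OB, OS, EB, ES, all callus), surgery, injury and population (SIB, SIS, OIB and OIS callus, SUS, OUB and OUS uninjured), and population and injury (BI and SI callus, BU and SU uninjured). The final letter, or the first in the last form, is B for mBCSP and S for mSSC. Nothing in the labels says that arrays of a group came from separate mice, so the p-values measure the spread between these arrays, which may be technical.

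The cells had been sorted as negative for CD45, Ter119 and Tie2, yet signals of leukocyte genes differed widely. Ptprc, which encodes CD45, ran from 13.79 to 14.74 (log2 signal) on the uninjured arrays and from 6.58 to 13.53 on the callus arrays. The mean of 4 leukocyte markers (Ptprc, Laptm5, Coro1a and Cd53) ran from 13.59 to 13.92 in uninjured bone and from 7.88 to 12.96 in callus, with no overlap, and all 4 were called lower in callus. Prrx1, a transcription factor of limb skeletal progenitors, ran from 11.09 to 12.87 in callus but only from 6.67 to 10.47 in uninjured bone, with the lowest values on the arrays SU and BU. Of 7 skeletal progenitor genes tested (Prrx1, Pdgfra, Col1a1, Sox9, Itgav, Cd200 and Eng), 6 were called higher in callus. Their mean was 8.35 on SU and 8.72 on BU and 9.83 to 11.12 on the other uninjured arrays, against 11.56 to 12.09 in callus. Eng, at 8.08 to 8.75 in uninjured bone, lay inside its callus range of 7.36 to 9.97. By these markers skeletal identity was weak on SU and BU and less so on SUS, OUB and OUS. In such bulk samples fewer cells of a type and less RNA per cell cannot be told apart.

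Type I interferon is a secreted alarm against viruses. Cells sense foreign RNA through Ddx58 (RIG-I), Ifih1 (MDA5) and Dhx58 (LGP2), secrete interferon, and respond through Stat2 and Irf9, which bind the interferon-stimulated response element (ISRE) in front of antiviral genes. MHC class I, with its light chain B2m, shows peptides from inside nearly every cell type and is interferon-inducible, whereas MHC class II is made mainly by B cells, macrophages and dendritic cells under the control of Ciita. The list therefore mixes genes any cell can raise with genes that blood cells carry.

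Sequences around the starts of the genes were set beside this division. RefSeq windows (GRCm38.p6, 250 bases before to 50 after the annotated start) were found for 29 of the 37 members, 36 windows in all. The ISRE core GAAANNGAAA, searched on both strands, occurred in 12 of the 34 windows of interferon-induced and class I genes (35.3%), in 0 of 2 class II windows, and in 3.44% of all 32851 windows. The Y box core ATTGG, the binding motif of NF-Y and one element of class II promoters, occurred in both class II windows, and in 37.4% of all windows, so it is common. The core TTCNNNGAA of the interferon gamma activated site occurred in 7 of the 34 (20.6%), against 8.3% of all windows. The matches are descriptions of letters, not measured binding. The 200 bases before the start are printed for 5 interferon-regulated genes that contrast in the callus comparison, with ISRE cores in capitals, either as written or as the complement on the other strand:
Ifit1, chr19:34640689-34640888, plus strand: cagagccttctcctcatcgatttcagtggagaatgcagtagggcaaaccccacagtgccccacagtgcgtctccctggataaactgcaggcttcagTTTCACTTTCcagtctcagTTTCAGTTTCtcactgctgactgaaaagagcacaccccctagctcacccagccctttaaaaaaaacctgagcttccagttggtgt
Ifit3, chr19:34583329-34583528, plus strand: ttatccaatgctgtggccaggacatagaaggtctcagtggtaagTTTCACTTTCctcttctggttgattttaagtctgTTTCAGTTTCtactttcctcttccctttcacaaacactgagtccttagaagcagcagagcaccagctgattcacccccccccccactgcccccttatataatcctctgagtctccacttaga
Oas3, chr5:120777660-120777859, minus strand: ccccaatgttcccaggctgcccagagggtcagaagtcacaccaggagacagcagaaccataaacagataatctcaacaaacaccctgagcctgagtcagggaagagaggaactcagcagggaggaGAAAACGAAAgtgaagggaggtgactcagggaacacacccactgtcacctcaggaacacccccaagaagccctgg
Bst2, chr8:71537473-71537672, minus strand: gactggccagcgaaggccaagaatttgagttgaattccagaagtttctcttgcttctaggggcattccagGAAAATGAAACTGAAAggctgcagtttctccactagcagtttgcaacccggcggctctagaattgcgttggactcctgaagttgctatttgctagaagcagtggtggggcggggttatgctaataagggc
B2m, chr2:122147487-122147686, plus strand: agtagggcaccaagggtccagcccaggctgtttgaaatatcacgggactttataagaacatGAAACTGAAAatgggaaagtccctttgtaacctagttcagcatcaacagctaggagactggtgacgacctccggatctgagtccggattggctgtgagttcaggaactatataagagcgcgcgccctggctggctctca
The same stretch is printed for both class II genes with a window, with Y box cores in capitals on either strand:
H2-Aa, chr17:34287824-34288023, minus strand: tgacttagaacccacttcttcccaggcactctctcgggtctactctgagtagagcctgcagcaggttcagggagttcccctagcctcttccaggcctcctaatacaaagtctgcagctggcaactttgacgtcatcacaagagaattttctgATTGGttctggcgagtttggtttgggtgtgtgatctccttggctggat
H2-Eb1, chr17:34305667-34305866, plus strand: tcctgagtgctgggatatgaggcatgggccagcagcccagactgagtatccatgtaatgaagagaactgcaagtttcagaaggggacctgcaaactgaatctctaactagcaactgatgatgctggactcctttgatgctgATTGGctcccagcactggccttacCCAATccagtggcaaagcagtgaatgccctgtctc
Ifit1 and Ifit3, of one gene cluster on chromosome 19, each held 2 ISRE cores, at -104 and -85 bases from the start in Ifit1 and at -156 and -122 in Ifit3. The 2 cores of Bst2, at -130 and -124, overlap, and single cores stood at -75 in Oas3 and -139 in B2m.

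The first comparison asked how fracture callus differed from uninjured bone. Of 34 tested members, 26 were called lower (limma, Benjamini-Hochberg adjusted p under 0.05 over all genes) and 0 higher, where 17.9% of all 14504 genes were called lower and 20.9% higher. The median log2 difference was -1.24 over the members and 0.02 over all genes. Interferon-induced and class I genes were called lower in 24 of 29 cases (median -1.27) and class II genes in 2 of 5 (median -1.15). On 29 of the 35 measured members the brightest array was an uninjured one, and on 15 the dimmest was SIS, a sham callus mSSC array.

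All 3 sensors were called lower in callus. Ifih1, which senses long double-stranded RNA, stood at 10.53 (SUS), 10.84 (OUB), 11.10 (OUS), 10.66 (BU) and 10.89 (SU) in uninjured bone. Its 12 callus arrays ran from 7.20 through a median of 8.88 to 9.73, so that the groups did not overlap. The log2 difference was -1.95 ± 0.38 (SE; adjusted p = 0.000668, limma). Ddx58, which senses short RNA with a 5′ triphosphate, differed by -1.15 ± 0.29 (adjusted p = 0.00445), and its highest array was SU at 12.31. Dhx58, a regulator of the other 2, differed by -1.27 ± 0.40 (adjusted p = 0.0198) with overlap between callus (5.95 to 9.09) and uninjured bone (7.33 to 9.27).

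All 5 transcription factors were called lower as well. Irf9, the DNA-binding partner of Stat2, was between 10.82 and 11.09 on the 5 uninjured arrays (10.86, 10.82, 10.85, 11.09 and 11.0 on SUS, OUB, OUS, BU and SU) and between 8.50 and 10.32 in callus (median 9.34). The groups did not overlap, and the difference was -1.59 ± 0.26 (adjusted p = 0.000176, limma). Irf7, which amplifies interferon production, differed by -1.21 ± 0.33 (adjusted p = 0.00769), and Irf1 by -0.65 ± 0.22 (adjusted p = 0.026). Stat2 was the weakest call at -0.69 ± 0.26 (adjusted p = 0.049), and it passed the threshold in only 4 of 17 fits that each left out 1 array. Irf8, which is also a lineage factor of macrophages, dendritic cells and B cells, differed by -1.61 ± 0.42 (adjusted p = 0.00553). Its uninjured values were 9.88, 9.90, 10.06 and 10.71 on SUS, OUB, OUS and BU but 7.75 on SU, inside the callus range of 7.22 to 8.77.

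Of the effectors, 11 of 16 tested were called lower. The largest difference was that of Ifit1, which binds foreign RNA ends: -2.69 ± 0.46 (adjusted p = 0.000254, limma). Its uninjured arrays stood at 10.78, 10.47, 10.54, 10.46 and 10.08 (SUS, OUB, OUS, BU, SU), all above the callus arrays, which ran from 5.95 (SI) through a median of 8.66 to 9.53 (ES). The 2'-5' oligoadenylate synthetase family, which activates RNase L or has lost that activity, was represented by 4 members, all called lower. Oas2 gave the smallest p of the list, with uninjured arrays from 9.50 to 10.21, callus arrays from 7.61 to 9.12, and a difference of -1.64 ± 0.26 (adjusted p = 0.000129). Oas3 differed by -2.10 ± 0.49 and Oasl2 by -2.40 ± 0.48, both without overlap, and Oasl1 by -1.10 ± 0.32 with overlap (adjusted p of 0.00296, 0.000856 and 0.0119). Xaf1 differed by -1.66 ± 0.37, Gbp3 by -1.58 ± 0.54, and Usp18, which shuts down interferon signalling, by -1.47 ± 0.42 (adjusted p of 0.00201, 0.0302 and 0.0113). Ifit2, Trim25 and Ifi35 were also called, at -1.21, -0.86 and -0.68 (adjusted p of 0.00792, 0.0402 and 0.0171, limma). Trim25 passed the threshold in only 9 of 17 fits that each left out 1 array. Probe sets disagreed for Ifi35, one of which gave mean differences of 0 and 0.21 within the 2 forms that hold uninjured arrays. Among the genes above, another probe set of Stat2 differed by 0.15 in the surgery, injury and population form and by -0.41 in the population and injury form. A probe set of Ddx58 not used gave 0.26 and -0.67, and another -0.92 and 0.17, in the same order of forms.

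The calls were counted by the motif in front of the gene. Of 11 tested interferon-induced or class I genes with an ISRE core in a window, 7 were called lower, and of 14 with a window but no core, 13 were. The only cores of Ddx58 and Ifih1, which were both called, lay after the start, at 2 and 32 bases. The relation of calls to cores was not tested. The 4 with a core that were not called are Ifit3, Bst2, Gbp2 and Rsad2. Ifit3, of the same cluster as Ifit1 and Ifit2 and with 2 cores like Ifit1, differed by only -0.24 ± 0.32 (adjusted p = 0.606). It was brightest on the callus array BI (11.21), and its callus range of 9.10 to 11.21 enclosed the uninjured range of 9.59 to 10.36. Bst2 (tetherin), with its 2 overlapping cores, differed by -0.08 ± 0.26 (adjusted p = 0.841). Isg20 at -0.41 ± 0.50 and Gbp2 at -0.59 ± 0.42 were not called either (adjusted p of 0.57 and 0.29). Whether these genes differ from their neighbours was not tested.

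Rsad2 (viperin), an enzyme that makes a chain-terminating nucleotide, had the widest range of the list at 6.04 log2 units. It stood at 14.21, 13.91, 13.98 and 14.17 on SUS, OUB, OUS and BU, at 11.12 on SU, and between 8.24 and 8.93 on the 6 callus arrays of the surgery and population form. On the other callus arrays it was 10.68 (SIB), 10.27 (SIS), 11.72 (OIB), 13.16 (OIS), 10.19 (SI) and 14.28 (BI). BI thus reached the uninjured level, and the difference of -1.87 ± 0.74 was not called (adjusted p = 0.0547, limma). The other 2 probe sets of Rsad2 were lower in callus by more in the population and injury form, with mean differences of -1.88 and -1.33 there against -0.42 for the one used. Alas2, a gene of red cell precursors, stood at 13.75 to 14.23 on SUS, OUB, OUS and BU, at 13.79 on BI and 13.34 on OIS, but at 7.68 on SU, and its part in the Rsad2 signal was not tested.

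All 5 genes of class I and its supply were called lower, and 3 of them without overlap. Psmb9, an immunoproteasome subunit, stood at 11.49 (SUS), 10.70 (OUB), 10.81 (OUS), 12.54 (BU) and 12.22 (SU), against 7.39 to 10.04 in callus (median 9.11). Its difference was -2.29 ± 0.38 (adjusted p = 0.000204, limma). Psmb8, another immunoproteasome subunit, differed by -1.77 ± 0.31 (adjusted p = 0.000324). B2m was the brightest member, at 14.43, 14.58, 14.57, 14.50 and 15.08 on SUS, OUB, OUS, BU and SU and at 12.24 to 13.91 in callus (median 13.58), a difference of -1.29 ± 0.24 (adjusted p = 0.000552). The peptide transporters Tap1 and Tap2 differed less, by -0.78 ± 0.21 and -0.65 ± 0.21 (adjusted p of 0.00814 and 0.0229). Psmb9 and Tap1 lie head to head on chromosome 17, and their RefSeq windows overlap, yet their differences were -2.29 and -0.78.

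In all, 9 members did not overlap between callus and uninjured arrays: Ifih1, Irf9, Ifit1, Oas2, Oas3, Oasl2, Psmb8, Psmb9 and B2m. All were higher in uninjured bone, as were 7.03% of the 14504 genes, and 0 of 5 class II genes were among them.

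**Figure D1:**
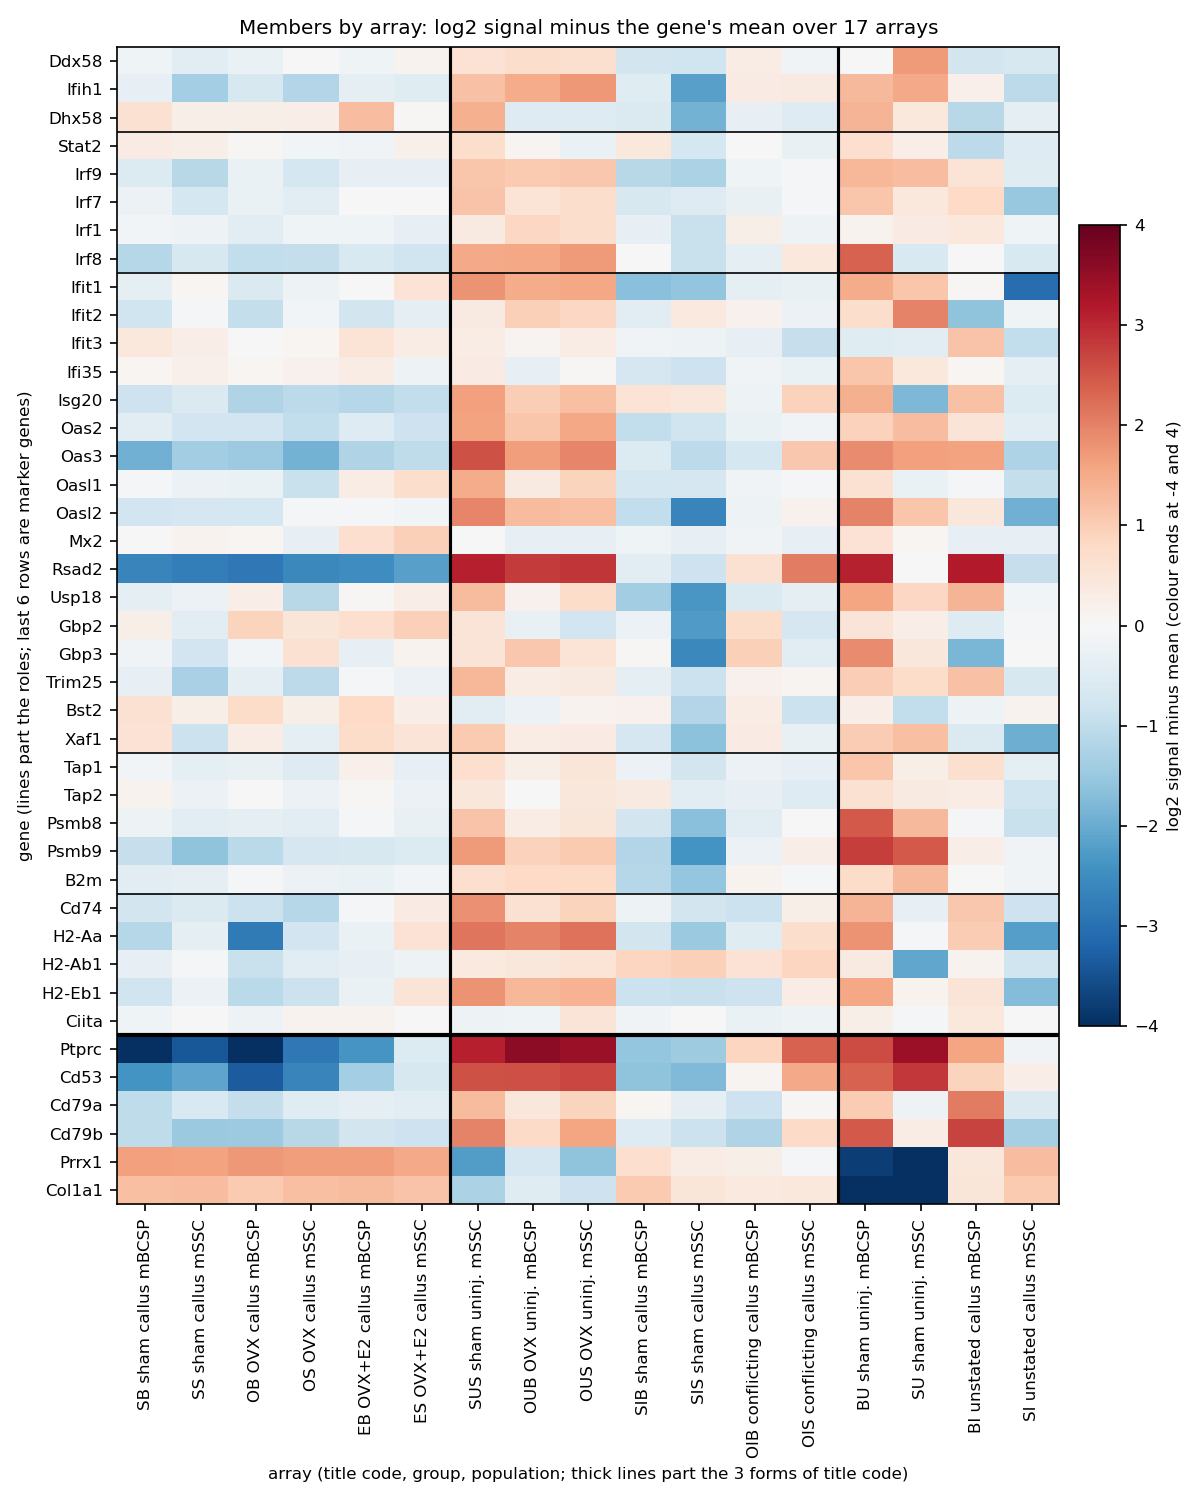
Log2 signal of the 35 measured members (rows, grouped by role) on 17 arrays (columns, grouped by form of title code), each as its difference from the gene's mean over the arrays, red above and blue below. The 5 uninjured arrays (SUS, OUB, OUS, BU, SU) are mostly red, SIS is lowest for 15 genes, and the 6 marker rows at the foot show Ptprc high where Prrx1 is low.

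The class II genes did not move as a block. H2-Eb1, a beta chain, differed by -1.88 ± 0.44 (adjusted p = 0.00307, limma). It stood at 11.49, 11.02, 11.09 and 11.25 on SUS, OUB, OUS and BU, at 9.84 on SU, and between 7.95 and 10.21 in callus (median 8.87). H2-Aa, an alpha chain, differed by -2.19 ± 0.68 (adjusted p = 0.017), and its uninjured values were 12.50, 12.35, 12.53, 12.16 and 10.33 in the same order, with callus arrays from 7.55 to 11.38. In both genes only SU overlapped with the callus arrays. Cd74, the invariant chain that escorts class II molecules, differed by -1.15 ± 0.45 and missed the threshold (adjusted p = 0.0535).

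H2-Ab1 encodes the beta chain that pairs with the product of H2-Aa, and it was not called. Its callus arrays ran from 10.46 to 12.31 (median 11.22), with the 3 highest at 12.21 (SIB), 12.31 (SIS) and 12.20 (OIS). Its uninjured arrays were 11.73, 11.79, 11.91 and 11.70 on SUS, OUB, OUS and BU and 9.27 on SU. The fitted difference was 0.39 ± 0.34 (adjusted p = 0.409, limma). Callus was higher by 0.35 within the surgery, injury and population form and by 0.52 within the population and injury form, and the other probe sets of the gene gave 0.38 and 0.67 in the former and 0.24 and 0 in the latter. In the population and injury form the sign rests on SU, since BI stood at 11.48 against 11.70 on BU, and SI at 10.54 against 9.27 on SU. Without the array BU it was called higher. Ciita, the master regulator of class II, had a range of 0.79 log2 units over all 17 arrays on the probe set used, around a mean of 7.46, and its difference was -0.06 ± 0.19 (adjusted p = 0.841). Another of its probe sets ran from 6.73 to 8.49 and differed by -0.80 in the surgery, injury and population form and by 0.95 in the population and injury form.

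Within single title forms the direction was mostly the same. In the surgery, injury and population form, 34 of 35 members had a lower mean in callus, and in the population and injury form 30 of 35. Fits within each form called 13 of 34 members lower (22.7% of all genes called in either direction) and 2 of 34 (7.96%). Leaving out the array SI alone reduced the 26 calls lower to 17, with 4082 of all 14504 genes called in either direction (28.1%). Leaving out BU, SU and BI together, chosen after seeing the data, gave 24 calls lower, with 5561 genes called in either direction (38.3%). The main fit had called 5626 genes in either direction. The difference between callus and uninjured bone was not called different between mSSC and mBCSP for any of 34 members (0% of all genes called; 5.69% at an unadjusted p under 0.05, and 1 of 34 members, H2-Ab1, at 1.08 ± 0.49).

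The leukocyte markers ran with the same contrast, so a fit with their mean as a further term was made. In it, 1 of 34 members was called lower, Ifit2 at -1.73 ± 0.47 (adjusted p = 0.0261, limma), where 10.4% of all genes were called in either direction. The median difference became -0.72 for interferon-induced and class I genes and 0.07 for class II genes. Oas2 at -1.09 ± 0.35 (adjusted p = 0.0564), Irf9 at -0.84 ± 0.30 (0.0854) and Psmb9 at -1.23 ± 0.44 (0.0907) came next. H2-Aa turned to 0.20 ± 0.61, Cd74 to 0.07 ± 0.53 and Rsad2 to 0.46 ± 0.77, while H2-Ab1 stood at 0.78 ± 0.51, none of them called. Ifit2 was highest of all arrays on SU (10.95) and lowest on BI (7.36), both of the population and injury form. Its mean difference, without the marker term, was -2.21 in that form and -0.76 in the surgery, injury and population form. Between the sham mSSC arrays of the latter form, callus SIS and uninjured SUS, it was 0.03. Because the marker mean does not overlap between callus and uninjured arrays, the fit with the marker term leans on the spread within each side. The effects of injury and of leukocyte signal cannot be told apart in these arrays.

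**Figure D2:**
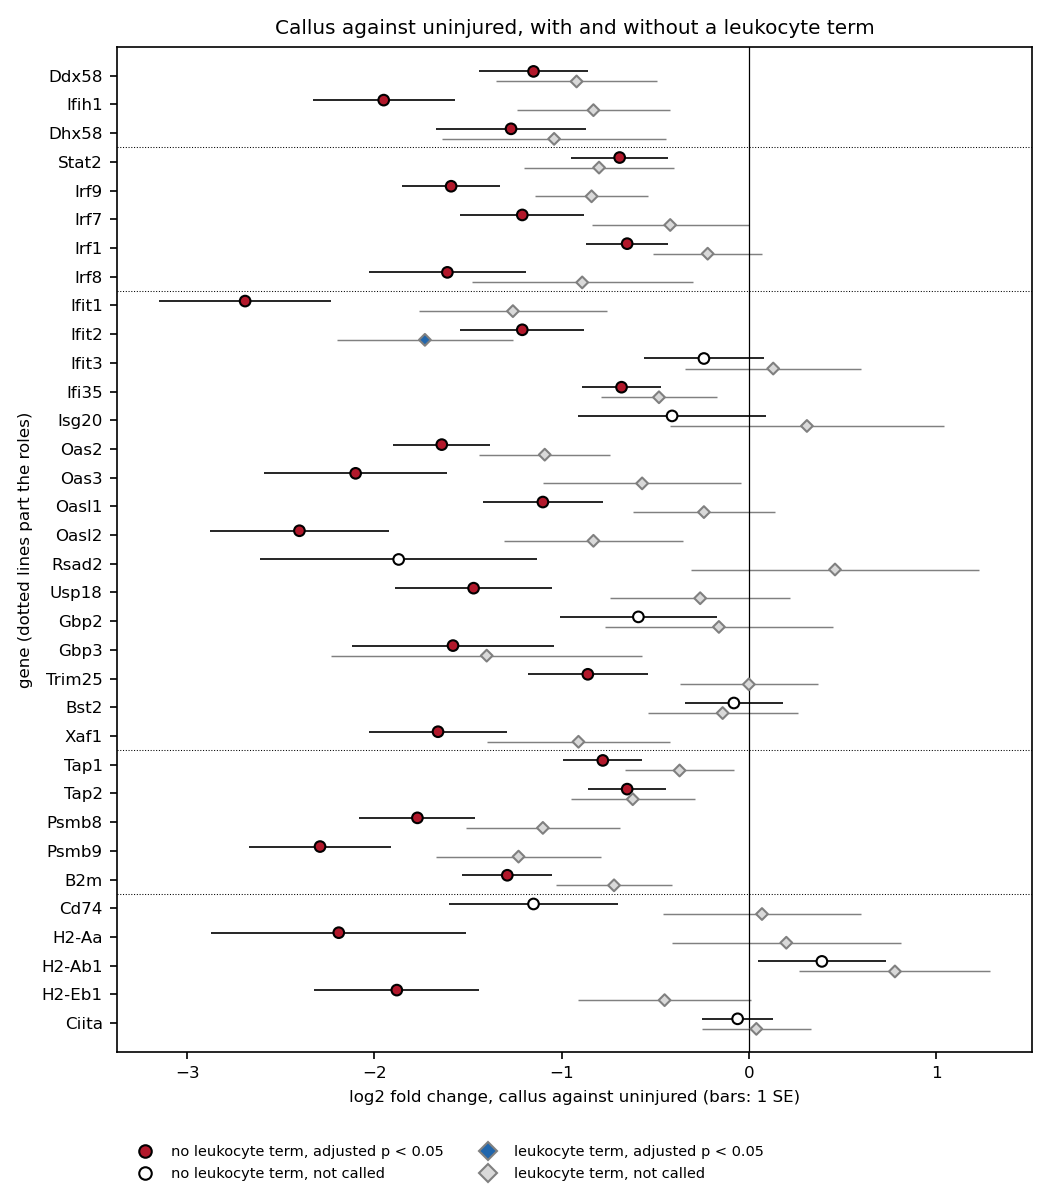
Log2 difference of callus from uninjured arrays for 34 members (points, bars of 1 SE), from the fit without (circles) and with (diamonds) the leukocyte marker mean as a term. Filled red circles mark the 26 members called lower, and with the marker term only Ifit2 stays past the threshold (blue), with H2-Aa, Cd74 and Rsad2 moving to the right of 0.

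Genes of the wider pathway were measured beside the list. Of 36 other tested genes of interferon signalling and antigen presentation, 21 were called lower and 1 higher, with a median of -0.80. Ifitm1, a restriction factor of viral entry, differed by -2.71 ± 0.45, Adar, which edits double-stranded RNA, by -1.56 ± 0.26, and the class I heavy chain H2-D1 by -1.28 ± 0.25 (adjusted p of 0.000195, 0.000225 and 0.000629, limma). Ifnar2, a chain of the interferon receptor, differed by -0.91 ± 0.15 (adjusted p = 0.000228, limma). The other chain, Ifnar1, had a higher median in callus (10.37, range 9.65 to 10.89) than in uninjured bone (9.86, range 9.37 to 10.47). The 1 called higher was Tlr3, an endosomal sensor of double-stranded RNA, at 1.25 ± 0.43 (adjusted p = 0.0293, limma). By sign alone, 29 of the 36 were lower in callus and 7 higher, and 14 were not called.

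The arrays SU and BI stood apart from others of their side in many members. SU is an uninjured mSSC array with Ptprc at 14.58, within the uninjured range of 13.79 to 14.74. H2-Aa (10.33), H2-Eb1 (9.84), H2-Ab1 (9.27) and Cd74 (9.27) were the lowest of the 5 uninjured arrays there, 4 of 5 class II genes. So were 11 of the 30 interferon-induced and class I genes, among them Irf8 (7.75), Oasl1 (7.15), Rsad2 (11.12) and Tap1 (9.94). Another 4 of the 30 were the highest uninjured values, and the highest of all 17 arrays: B2m at 15.08, Ddx58 at 12.31, Ifit2 at 10.95 and Xaf1 at 9.30. Markers of several other cell types were also lowest of the uninjured arrays on SU. These were the 3 B cell genes (Cd79a 7.76, Cd79b 8.28, Ms4a1 7.90), 4 of 5 dendritic cell genes (such as Siglech at 8.34 and Flt3 at 6.69), 3 of 6 macrophage genes (such as Csf1r at 9.85) and both erythroid genes (Alas2 7.68, Epor 6.45). The same held for 6 of 7 skeletal progenitor genes (such as Prrx1 at 6.67) and 3 of 5 endothelial genes. Of neutrophil genes it held for 1 of 5, and of T cell genes for 1 of 3.

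BI, a callus mBCSP array, held the highest callus value of 4 of 5 class II genes, with H2-Aa at 11.38, H2-Eb1 at 10.21 and Cd74 at 10.66, but not of H2-Ab1 (11.48). It also held that of 12 of the 30 interferon-induced and class I genes, such as Rsad2 (14.28), Ifit3 (11.21) and Tap1, while Ifit2 (7.36) and Stat2 (7.92) were at their lowest there. Its Cd79a (10.02) and Cd79b (10.68) were the highest of all arrays, but its Ms4a1 (8.32) was below that of the callus array OIS (9.14). It was the highest callus array for 4 of 5 dendritic cell, 3 of 5 neutrophil and both erythroid genes as well. The same held for only 1 of 6 macrophage, 1 of 4 leukocyte and 0 of 3 T cell genes. Of skeletal progenitor genes it held for 1 of 7, and of endothelial genes for 0 of 5. The part of these cell types in the signal of the members was not tested.

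The 6 callus arrays of the surgery and population form, which share a form and a low leukocyte signal (marker means of 7.88 to 10.89), were looked at alone. They differ in treatment, being sham, OVX and OVX + E2 callus. The highest marker means were those with E2 (EB 9.78, ES 10.89), so a correlation over these arrays cannot be told apart from the E2 difference. Across them the correlation with the leukocyte mean had a median of 0.88 over the 5 class II genes, 0.22 over the 29 interferon-induced and class I genes, and 0.00 over all genes. H2-Eb1 had r = 0.96, H2-Aa 0.93 and Cd74 0.88, but H2-Ab1 0.67 and Ciita 0.44. The other members ranged widely, with B2m at 0.09 and Irf9 at 0.08. Oasl1 (0.73), Oas3 (0.66) and Oasl2 (0.63) were higher, and Ifit1 (0.97) and Rsad2 (0.90) were as high as the highest class II genes. Over all 12 callus arrays the medians were 0.47 for class II, 0.26 for the other members and -0.09 for all genes, and 0.30 and 0.07 without the 2 arrays farthest from the middle, for class II and the others. In the 7 arrays of the surgery, injury and population form, which span both sides of the injury contrast, both medians were high (0.83 and 0.89). Single genes departed from them there, with H2-Ab1 at -0.78, Ciita at 0.20 and Bst2 at 0.10. These are descriptions over few arrays, in which pairs of mSSC and mBCSP may come from the same mice, so no p is given.

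**Figure D3:**
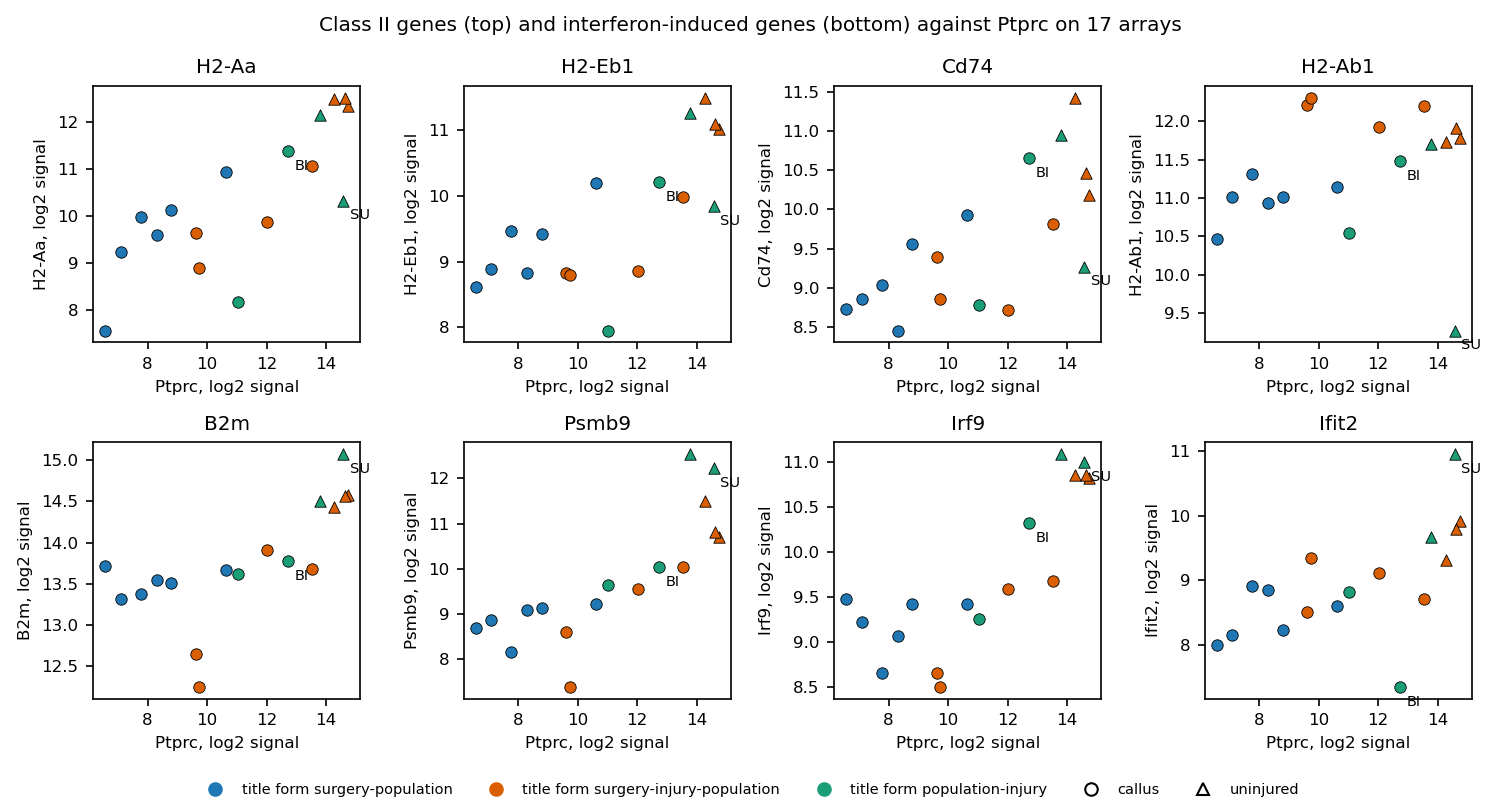
Log2 signal of 4 class II genes (top) and 4 interferon-induced or class I genes (bottom) against that of Ptprc on 17 arrays, with circles for callus, triangles for uninjured bone and colours for the form of title code. The genes were chosen after their values were seen. SU lies low for the class II genes and high for B2m, Psmb9, Irf9 and Ifit2, although 11 of the 30 interferon-induced and class I genes are lowest of the uninjured arrays on it, and H2-Ab1 does not follow Ptprc.

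Ovariectomy in callus was compared over the 4 sham and OVX arrays of the surgery and population form. No member was called (0 of 34; 0% of all genes), and no member reached an unadjusted p under 0.05, which 2.02% of all genes did. The median difference was -0.08, with 22 of 34 members lower in OVX. With the conflicting arrays counted as OVX it was 0.26, and with the leukocyte marker mean as a term 0.20, each with 8 of 34 lower. The 3 members of smallest p were Gbp2 at 0.79 ± 0.52, B2m at 0.29 ± 0.20 and Oasl1 at -0.43 ± 0.38 (each adjusted p = 1, limma). Gbp2, a GTPase that attacks pathogen vacuoles, stood at 9.59 (SB) and 8.93 (SS) in sham and 10.26 (OB) and 9.85 (OS) in OVX callus. B2m stood at 13.31 and 13.37 in sham and 13.71 and 13.54 in OVX callus. Both were higher in OVX in both populations, and for neither was the difference beyond the spread of the fit.

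Estradiol replacement was compared with OVX in callus over 4 arrays. Again no member was called, against 0.0207% of all genes, but 30 of 34 were higher with E2. Class II genes had a median of 1.08 and the other members one of 0.26. H2-Aa stood at 7.55 (OB) and 9.6 (OS) in OVX and 10.12 (EB) and 10.95 (ES) in OVX + E2 callus, a difference of 1.96 ± 1.0. Cd74 stood at 8.73 and 8.45 without and 9.56 and 9.93 with E2 (1.15 ± 0.62), and H2-Eb1 at 8.62 and 8.82 without and 9.42 and 10.19 with it (1.08 ± 0.68), each with an adjusted p of 1 (limma). Oasl1 had the smallest p, with 7.16 and 6.53 in OVX and 7.72 and 8.11 in OVX + E2 callus, a difference of 1.07 ± 0.38 (unadjusted p = 0.0165, adjusted p = 1, limma), and it was the only member under 0.05 unadjusted, where 2.29% of all genes were. All 4 leukocyte markers were higher with E2, by 1.78 to 2.27, and all 4 at an unadjusted p under 0.05, none of them called. With the marker mean as a term, 25 of 34 members were lower, the class II median was -0.76, and H2-Aa and Cd74 turned to -1.51 and -0.76. That mean was 7.88 (OB) and 8.85 (OS) without and 9.78 (EB) and 10.89 (ES) with E2, with no overlap. The effects of E2 and of leukocyte signal therefore cannot be told apart in these arrays. With the conflicting arrays counted as OVX, 19 of 34 were higher, and the median of the members outside class II was 0. Without the E2 array ES the class II median was 0.57 and that of the others 0.13, and without the OVX array OB they were 0.74 and 0.06, with 11 of 34 members lower with E2.

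**Figure D4:**
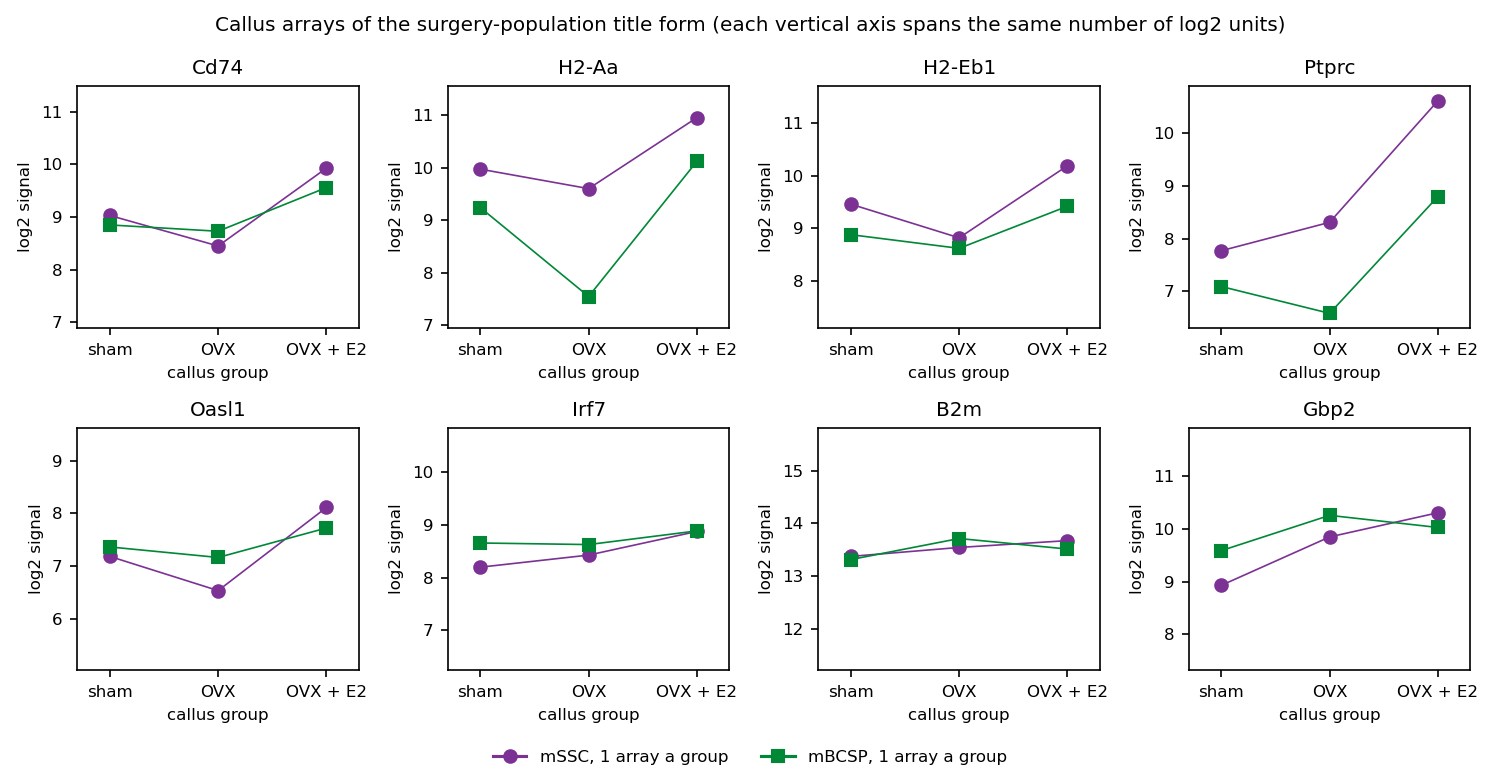
Log2 signal of 3 class II genes and Ptprc (top) and of Oasl1, Irf7, B2m and Gbp2 (bottom) in sham, OVX and OVX + E2 callus, 1 array a group and population, with purple circles for mSSC and green squares for mBCSP. Cd74, H2-Aa, H2-Eb1 and Ptprc are all highest with E2 in both populations, B2m stays between 13.31 and 13.71, and each axis spans the same number of log2 units.

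In uninjured bone, OVX was compared with sham through a fit that rests on the single sham array SUS. No member was called (0.145% of all genes were). Dhx58 was the nearest, at 9.27 on SUS and at 7.33 and 7.34 on OUB and OUS, a difference of -2.13 ± 0.57 (adjusted p = 0.277, limma). Trim25, a ubiquitin ligase that activates RIG-I, differed by -1.26 ± 0.47 (adjusted p = 0.501) and Gbp2 by -1.32 ± 0.65 (adjusted p = 0.685). Of the 34 members, 25 were lower in OVX.

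Between mSSC and mBCSP no member was called (0% of all genes), although 31 of 34 were lower in mSSC, with a median of -0.32. Without the pair of BI and SI, which drops out when either is left out, 26 of 34 were lower, the median was -0.16, and that of class II was 0.15. Without the pair of BU and SU 28 of 34 were lower, with medians of -0.22 and 0.06. At an unadjusted p under 0.05 there were 5 members, where 9.66% of all genes passed. Xaf1 differed by -0.63 ± 0.21 (adjusted p = 0.408, limma) and was lower in mSSC in 6 of 8 pairs. Trim25 differed by -0.55 ± 0.19 and was lower in 7 of 8. Ifit2 ran the other way, at 0.63 ± 0.22, and was higher in mSSC in 6 of 8 pairs (both adjusted p = 0.417). The 5 endothelial markers were lower in mSSC by 1.78 to 2.66, each at an unadjusted p under 0.05 and none called, and their part in these differences was not tested.

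Arrays of the same label also differed by the form of their title. Sham callus arrays of the surgery, injury and population form were lower than those of the surgery and population form in 25 of 34 members, and 1 was called, B2m (1.72% of all genes were called lower). B2m stood at 12.64 (SIB) and 12.24 (SIS) against 13.31 (SB) and 13.37 (SS), a difference of -0.90 ± 0.20 (adjusted p = 0.0382, limma). Dhx58 was next, at -1.66 ± 0.46 (adjusted p = 0.0856). Among the other pathway genes Ifitm3, Cxcl9 and Ifitm2 were called lower, at -1.64 ± 0.25, -1.40 ± 0.22 and -1.07 ± 0.19 (adjusted p of 0.0085, 0.00856 and 0.014). The callus arrays of conflicting surgery, of the same form as SIB and SIS, were higher than these in 29 of 35 members, B2m by 1.36 and Psmb9 by 1.80, and their Ptprc was 12.02 and 13.53 against 9.61 and 9.73. What their surgery was, and the part of leukocyte signal in that difference, was not tested.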

How the data were processed

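The deposited values are log2 signals, 1 column per array. The methods describe sorting into TRIzol, RNeasy Micro columns, 2 rounds of RiboAmp amplification, dChip export and Gene Expression Commons, whereas the submitters' processing notes name MAS5, so which tool made the values is not settled. Array medians ran from 7.66 to 7.88. Of 45101 probe sets, 64 controls were left out, and 34945 of the rest carried 1 gene symbol, 932 several and 9160 none.

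Linear values were quantile normalized, values below the 20th percentile were set to it (5.951 in log2), and log2 was taken again. Each gene was read from its brightest probe set by mean. Testing covered 14504 genes with 2 or more arrays reaching 7.198, the 40th percentile, in limma (version 3.58.1, R 4.3.3, trended eBayes). A call needed an adjusted p (Benjamini-Hochberg) under 0.05. Callus against uninjured bone used all 17 arrays, with title form and population as terms and pairs of mSSC and mBCSP arrays as a random block (estimated correlation 0.133, 12 residual degrees of freedom plus a median of 4.37 from moderation). The other comparisons, except the interaction with population, came from 1 fit with group (7), population and title form (7 residual, plus 4.06), and 7 comparisons were made in all. The number of arrays limits the precision. Promoter windows came from RefSeq (GRCm38.p6).

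The members, lists and tests were chosen with earlier results of these data known. All members could be named: the called ones up to 8 of smallest p, otherwise the 3 of smallest p, with values by array, and others as examples. Alternatives changed normalization, floor, filter, probe set, moderation, terms, block, form and arrays, or added leukocyte markers (Ptprc, Laptm5, Coro1a, Cd53).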

Additional observations from a re-analysis of the deposited data

Results flagged for a closer look

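Among 35 genes examined in the group of 4 sham callus arrays, 3 had an array far from the other 3. Stat2 was at 8.25 on SIS, with the next at 9.21 and the highest at 9.38. Oasl2 was at 5.95 on SIS, which is the floor, with the others from 7.6 to 7.92. H2-Eb1 was at 9.46 on SS, with the others from 8.80 to 8.88. Chance alone flags about 1 in 20 groups by this rule, and no cause was tested.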

How the results depend on the processing

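Callus against uninjured bone called 26 members lower, 24 interferon-induced or class I and 2 class II. Outside the leukocyte term and the fits within 1 form, 27 alternatives called 17 to 28, the lowest without SI. With the leukocyte term 1 interferon-induced or class I and 0 class II members were called, within the surgery, injury and population form 11, and within the population and injury form 2, with 0 class II there. With 1 array left out, interferon-induced and class I calls ranged from 16 to 24, class II calls lower from 1 (without SI) to 3, and class II calls higher from 0 to 1 (H2-Ab1 without BU). Oas2, Irf9, Psmb9, Ifit1, Psmb8, B2m, Oasl2, Oas3 and H2-Eb1 were each called in 28 of 30 alternatives. Ifi35 was 0.01 with the probe set of widest range, and H2-Aa 0.20 and Trim25 0 with the leukocyte term. Between title forms, the 1 call became 0 without a filter on low values, with the widest probe set or without the eBayes trend, 2 with the leukocyte term, and 0 to 3 with 1 array left out. Oasl1 in OVX against sham callus turned to 0.08 once conflicting arrays were treated as OVX, and H2-Aa and Cd74 in OVX + E2 against OVX callus to -1.51 and -0.76 with the leukocyte term. The causes were not tested. The comparison of OVX with sham uninjured bone was not run without SUS, since no estimate is left. No paired analysis was possible by replicate number, because the labels carry none and those used here follow the order of accessions. The pairs of mSSC and mBCSP arrays that share group and title form entered the injury fit as a random block, and the population comparison was made with group and form as terms.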
